A study of Mus musculus with 2 samples.

Results

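The regions described are stretches of chromatin in which the mutant histone H2A.Z K3R3 gave a single enriched region where wild-type H2A.Z gave several. They were found by chromatin immunoprecipitation and sequencing (ChIP-seq) in mouse embryonic stem cells. A region of the looser K3R3 list (threshold 1e-09) was taken when it lay on an autosome other than 6 or 8 and overlapped at least 2 regions of the looser wild-type list. There were 1191 such joining regions among 99976 K3R3 regions on these 17 autosomes (1.19%), and among 114028 K3R3 regions on all chromosomes. They were chosen by the edges of the regions in the 2 looser lists, so the number of joining regions and the gap widths are a description. The stricter lists (1e-12) of the same libraries took no part in it.

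H2A.Z replaces the common histone H2A in a part of the nucleosomes. It is found mainly in those beside transcription start sites and at enhancers, often on either side of a nucleosome-poor stretch, and its C-terminal tail can be mono-ubiquitylated on lysines. In embryonic stem cells, mono-ubiquitylated H2A.Z is known from poised genes that also carry Polycomb marks. In K3R3, 3 lysines of that tail are arginines, which cannot be ubiquitylated.

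Both groups were embryonic stem cells labelled as strain V6.5 (129SvJaexC57BL/6), and the protocol names the transgenic lines KH2. One group expressed H2A.Z-YFP (wild type, WT in the plots) and the other H2A.Z.K3R3-YFP (K3R3). In both, the transgene came from a lentivirus with a doxycycline-inducible CMV promoter and was switched on with doxycycline at 1 µg/ml. In both, sorting kept the YFP-positive cells, and hairpins directed at the 3′ UTR depleted the cells' own H2A.Z. The labels do not say whether a line was a single clone. The antibody listed for both is Abcam:Ab290, which is directed against GFP and also binds YFP. Each group had a single library, so every comparison is of 1 library with another and no replicate checks it. Read depth is unknown from region lists.

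The width of a gap has to be read with the resolution of the lists. Both libraries were made from fragments of 200 to 400 bp, which also limits the resolution. All coordinates lay on a 25 bp grid, and no list held a gap narrower than 225 bp. A dip narrower than 225 bp is therefore not shown in any of the 4 lists. A gap that K3R3 "filled" is one across which its looser list reported no break of 225 bp or more, and the height of the signal there was not analysed here.

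Almost all joining regions bridged a single wild-type gap. Of the 1191, 1140 (95.7%, 95% Wilson interval 94.4 to 96.7) joined 2 wild-type regions, 48 (4.03%) joined 3 and 3 (0.252%) joined 4. Together they took in 2436 wild-type regions, 2.94% of the 82835 on these chromosomes, and filled 1245 gaps. Joining regions were wide. Their median width was 1325 bp (quartiles 950 and 1850 bp, range 325 to 10025 bp), against 400 bp for K3R3 regions with exactly 1 wild-type partner. The share of K3R3 regions that joined rose with width, from 0.0485% below 600 bp to 5.33% (4.83 to 5.87) from 1000 to below 1500 bp and 15.4% (13.7 to 17.2) at 2000 bp or more. A wide region has more room for a gap, and a joining region must span one, so part of the width and of this rise is built in. Wild-type regions that joined several K3R3 regions were wide too, with a median of 1400 bp against 375 bp for those with exactly 1 partner. At 2000 bp or more, 19.9% (18.0 to 22.0) of wild-type regions joined.

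**Figure D1:**
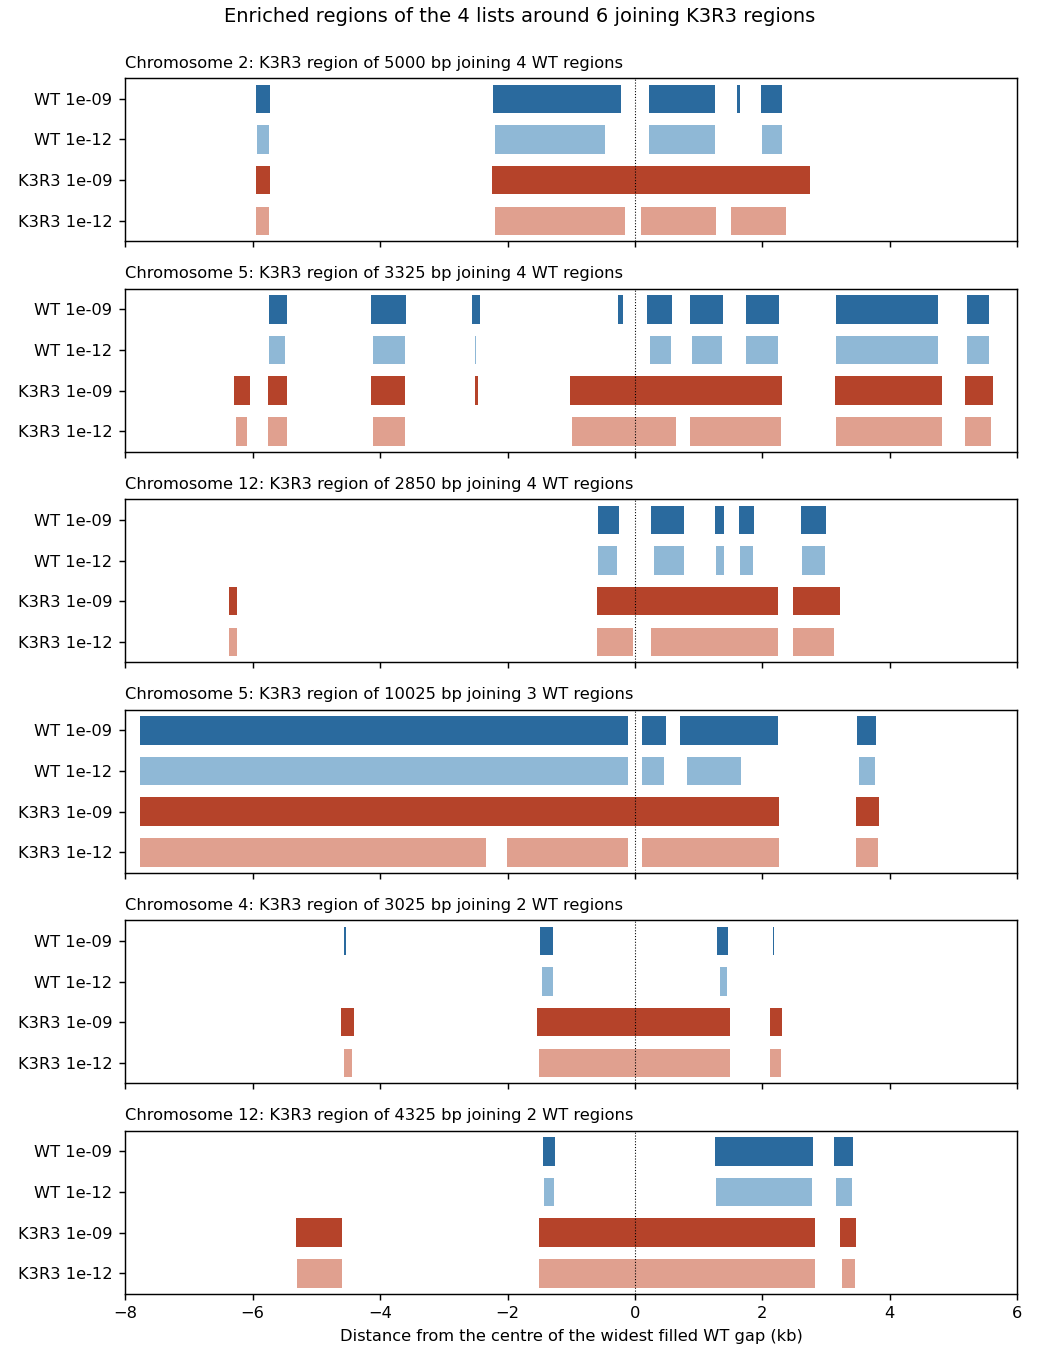
Regions of all 4 lists (blue, wild type; red, K3R3; paler shades, the stricter list) around 6 joining K3R3 regions, by distance in kb from the centre of the widest filled wild-type gap (dotted line). In the upper 4 panels the stricter K3R3 list breaks in at least 1 of the filled gaps, and in the lower 2 it runs on across gaps of 2575 and 2500 bp.

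The 3 regions that joined 4 wild-type regions show the range of forms. On chromosome 2 (157720551 to 157725550, mm9, 5000 bp) wild-type regions of 2000, 1025, 50 and 325 bp were separated by gaps of 450, 350 and 325 bp. At the stricter threshold K3R3 broke in the first gap and in the second, and ran without a break across the last, where the 50 bp wild-type region beside it was itself absent from the stricter wild-type list. On chromosome 5 (30680976 to 30684300, 3325 bp) wild-type regions of 75, 400, 525 and 525 bp left gaps of 375, 275 and 350 bp. Only the middle one of these was opened by the stricter K3R3 list. On chromosome 12 (113501826 to 113504675, 2850 bp) the gaps measured 500, 475 and 225 bp, and only the first was opened, with 45.0% of its length still covered. The wild-type regions covered 68.0% of the joining region on chromosome 2, 45.9% of that on chromosome 5 and 43.9% of that on chromosome 12.

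The next regions by number joined took in 3 wild-type regions each and were the widest of all. The widest, on chromosome 5 (124525576 to 124535600, 10025 bp), joined wild-type regions of 7650, 375 and 1525 bp across gaps of 225 bp each. The stricter K3R3 list opened the first gap at exactly the wild-type edges, leaving 124533226 to 124533450 free, and kept the second closed. It also broke once inside the 7650 bp wild-type region, which the stricter wild-type list left whole. The other, on chromosome 5 (111701726 to 111709225, 7500 bp), had gaps of 225 and 950 bp. The stricter K3R3 list covered the whole of the narrow gap and 71.1% of the wide one. The stricter wild-type list placed a region of 275 bp inside that wide gap, so here the gap was not empty of wild-type signal.

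Most filled gaps lay within a few grid steps of the narrowest gap the lists can show. The median width was 250 bp (quartiles 225 and 300 bp), 432 of 1245 gaps (34.7%, 32.1 to 37.4) had the smallest width of 225 bp, and 944 (75.8%, 73.4 to 78.1) measured at most 300 bp. Gaps of 500 bp or more numbered 98. The most alike set is the reverse, the 1312 wild-type regions (1.58% of 82835) that joined several K3R3 regions on the same chromosomes and filled 1365 K3R3 gaps. Those gaps also had a median of 250 bp with quartiles of 225 and 300 bp, and 35.2% of them (32.7 to 37.7) measured 225 bp. The sets differed among wider gaps, where those of 500 bp or more made up 7.87% (6.502 to 9.50) of the gaps filled by K3R3 and 4.84% (3.82 to 6.11) of those filled by the wild type. K3R3 filled 13 wild-type gaps of at least 1000 bp (1.04%, 0.611 to 1.78), and the wild type filled 4 such K3R3 gaps (0.293%, 0.114 to 0.751), with overlapping intervals.

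**Figure D2:**
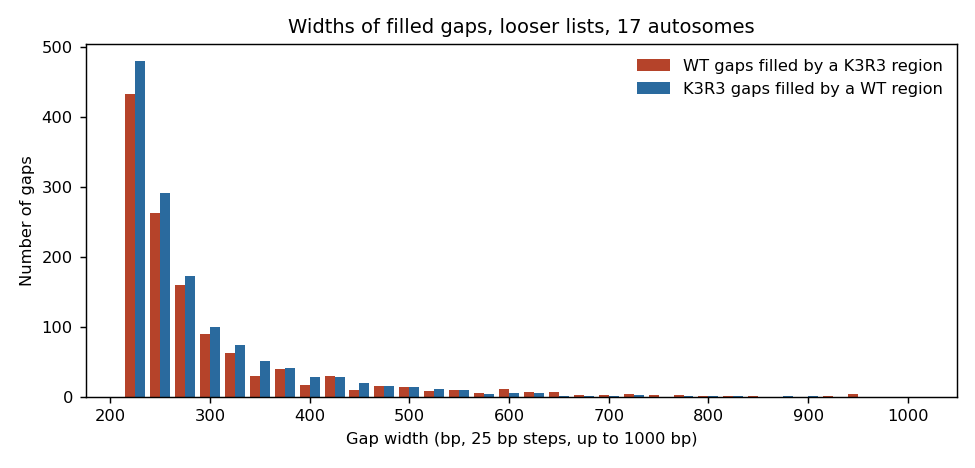
Number of filled gaps (vertical) by gap width in bp in steps of 25 bp, up to 1000 bp, for wild-type gaps filled by K3R3 (red) and K3R3 gaps filled by the wild type (blue). In both sets the count is highest at 225 bp, with 432 and 480 gaps, and falls steeply.

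Whether a wild-type gap was filled went with its width. Of 1177 wild-type gaps of 225 bp, K3R3 filled 36.7% (34.0 to 39.5). The share was 26.6% at 250 bp, 16.5% at 275 bp, 10.9% at 300 bp and 5.60% (4.78 to 6.54) between 325 and 400 bp. Between 825 and 1000 bp it was 0.335% (0.162 to 0.690). No list can show a gap below 225 bp. A K3R3 dip narrower by a single grid step than a 225 bp gap therefore counts as filled, so part of this fall is built in. Over all 14881 wild-type gaps of at most 1000 bp, 1232 were filled (8.28%), whereas the wild type filled 1361 of 19761 such K3R3 gaps (6.89%). K3R3 filled the larger share on 12 of the 17 autosomes. The share of regions that joined, in contrast, was higher in the wild type on 16 of the 17. The order of the filled shares did not hold in the stricter lists. There K3R3 filled 7.34% (6.94 to 7.77) and the wild type 7.77% (7.40 to 8.14), with overlapping intervals. It also turned with chromosomes 6 and 8 included, at 7.01% and 8.19%.

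The order also depended on which gaps were counted. A gap can be filled only where the other library has signal at both flanking regions. Of the 14881 wild-type gaps, 10842 had both flanks occupied in K3R3, 3481 had 1 and 558 had none. Of the 19761 K3R3 gaps, 11306 had both flanks occupied in the wild type. Among gaps with both flanks occupied, K3R3 filled 11.36% (10.78 to 11.97) and the wild type 12.04% (11.45 to 12.65), with overlapping intervals. Among wide gaps the K3R3 value was the higher in this count, with 1.56% (1.09 to 2.23) against 0.774% (0.462 to 1.29) between 625 and 800 bp and 0.182% (0.102 to 0.326) against 0.0528% (0.0180 to 0.155) between 1025 and 2000 bp. In each case the intervals overlapped.

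**Figure D3:**
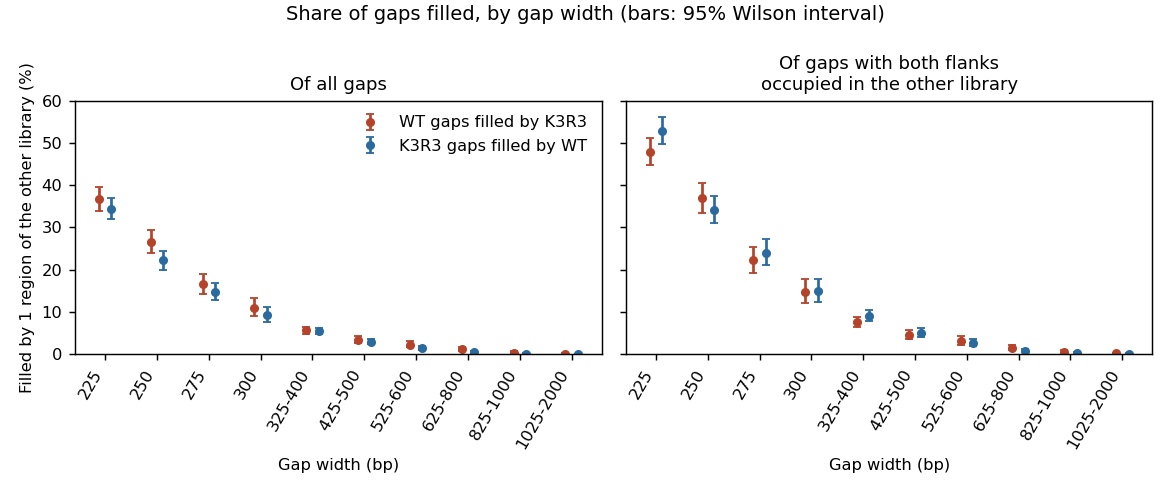
Share of gaps filled by a single region of the other library (vertical, %) by gap width in bp, for all gaps (left) and for gaps whose flanking regions both overlap a region of the other library (right); points are shares and bars 95% Wilson intervals. The share falls from 36.7% and 34.4% at 225 bp to below 1% beyond 825 bp in both libraries, and the libraries lie close together in the right panel.

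The wild-type regions beside a filled gap were smaller than those beside a gap that K3R3 kept open. Among gaps of at most 300 bp, the narrower flanking wild-type region had a median width of 225 bp (quartiles 150 and 375 bp) at the 944 filled gaps. At the 1998 gaps that separated K3R3 regions as well it was 325 bp (225 and 500 bp). When the narrower flank measured at most 100 bp, K3R3 filled 64.4% (58.5 to 69.9) of the gaps with both flanks occupied. For flanks of 225 to 400 bp the share was 29.6% (27.0 to 32.3), and for flanks of 425 to 800 bp it was 20.6% (17.7 to 23.8). In the reverse set the share was 56.7% (50.1 to 63.0) for the smallest flanks and 31.0% (28.5 to 33.6) and 34.1% (30.9 to 37.4) for the same larger classes. At 425 to 800 bp the intervals of the 2 libraries did not overlap and the K3R3 share was the lower. At 125 to 200 bp they did not overlap either and the K3R3 share was the higher, with 38.2% (34.4 to 42.0) against 30.3% (26.6 to 34.2). In the other 3 classes they overlapped. A filled gap has both flanks occupied by definition. An unfilled gap was counted here only if separate regions of the other library met both flanks, which a small flank can miss. Part of the difference in flank width may therefore be built in, in both sets. A narrow flank of at most 100 bp stood beside 224 of the 1245 filled gaps (18.0%), and 200 gaps (16.1%) lay between wild-type regions that both measured at least 500 bp.

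Filled gaps lay towards the middle of the joining region. The gap centre fell between 30% and 70% of the region's width in 863 of 1245 cases (69.3%, 66.7 to 71.8), with 178 below and 204 above that range. The median distance of the gap centre from the centre of the region was 13.6% of its width, as in the reverse set (13.6%). A gap needs a wild-type region on either side, so places near the ends are rare by construction. The filled gaps took up a median of 22.8% of the width of the joining region (quartiles 15.8% and 31.7%).

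**Figure D4:**
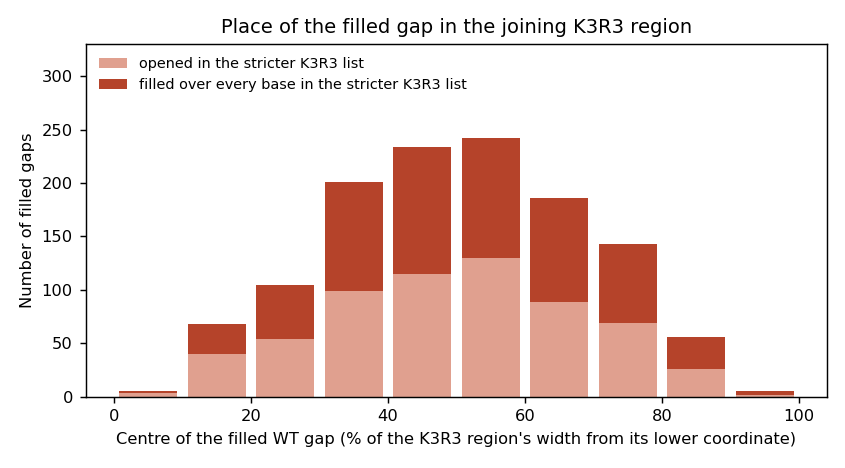
Number of filled wild-type gaps (vertical) by the place of the gap centre along the joining K3R3 region, in % of its width from the lower coordinate. Pale bars are gaps opened in the stricter K3R3 list and dark bars gaps it covers over every base. The counts peak in the middle, with 234 and 242 gaps in the central classes, and gaps of both kinds occur all along the region.

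At their outer ends most joining regions went beyond the wild-type regions. In 816 of 1191 cases (68.5%, 65.8 to 71.1) every joined wild-type region lay wholly within the K3R3 region. The summed overhang at both outer ends had a median of 50 bp (quartiles 0 and 125 bp) and was above 0 in 70.8% (68.1 to 73.3) of joining regions. Among 68570 K3R3 regions with exactly 1 wild-type partner the median was 25 bp (quartiles -25 and 75 bp) and 52.3% (51.9 to 52.7) were above 0. Wild-type regions that joined K3R3 regions had a median overhang of 25 bp, with 57.7% (55.0 to 60.3) above 0, against -25 bp and 30.5% for wild-type regions with exactly 1 partner. The overhang comes from the same edges that the rule used, and a region that reaches further is more likely to meet another, so these values are a description only. Of the 1804 kb within joining K3R3 regions, 70.5% was also covered by the joined wild-type regions, 21.3% was filled gap and 8.22% was overhang.

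The stricter K3R3 list opened the same gap in about as many cases as it kept it closed. Of 1245 filled gaps, 628 (50.4%, 47.7 to 53.2) had at least 1 base outside all stricter K3R3 regions, and 617 (49.6%) were covered over every base. In 434 of the opened gaps a part was still covered and in 194 no base was. The break was a true opening between stricter regions on both flanks in 538 of 628 cases (85.7%, 82.7 to 88.2). In 84 the stricter list touched only 1 of the flanking wild-type regions, and in 6 it touched neither. In the reverse set the stricter wild-type list opened 544 of 1365 gaps (39.9%, 37.3 to 42.5), a share below that of K3R3 with intervals that did not overlap. The K3R3 share was the higher on 16 of the 17 autosomes. Both shares depend on the definition, since only 15.6% of the K3R3-filled and 10.8% of the wild-type-filled gaps lost every base.

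That the stricter wild-type list also left these gaps open is nearly fixed by the rule, which took gaps in the looser list of the same library. In it 1239 of 1245 gaps (99.5%) had no base covered, and both flanking regions were still present at 1021 (82.0%, 79.8 to 84.0). For 503 gaps (40.4%, 37.7 to 43.1) both K3R3 lists filled the gap while both wild-type lists showed it open and flanked on either side. In the reverse set 698 of 1365 gaps (51.1%, 48.5 to 53.8) met the same condition.

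The narrowest gaps were opened less often than those of 300 bp. The stricter K3R3 list opened 40.5% (36.0 to 45.2) of the filled gaps of 225 bp, 48.3% (42.3 to 54.3) at 250 bp, 56.0% (48.2 to 63.5) at 275 bp and 65.6% (55.3 to 74.6) at 300 bp. From 325 to 400 bp and from 525 to 1000 bp it opened 59.5% and 59.2%. The reverse set showed this too, with 34.4% (30.3 to 38.7) opened at 225 bp, 33.7% at 250 bp, 41.9% at 275 bp and 52.5% (42.8 to 62.1) at 300 bp. A break is at least 225 bp wide itself, so in a gap of that width it either takes in the whole gap or reaches into a flank. By the width of the narrower flank, the opened share was 50.9% (44.4 to 57.4) at 25 to 100 bp and 54.0% (46.9 to 61.0) at 425 to 800 bp, with overlapping intervals. Counting only gaps opened between 2 touched flanks, the shares were 34.8% (28.9 to 41.3) and 50.3% (43.2 to 57.4), which did not overlap. The joining regions around opened and closed gaps had median widths of 1375 and 1325 bp.

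Where the stricter K3R3 list broke within a joining region, it mostly broke at the wild-type gap. Of 601 breaks between stricter regions inside joining regions, 541 (90.0%, 87.4 to 92.2) had their centre in a filled gap. By length, 84.1% of these breaks lay in filled gaps, which made up 21.3% of the length of the joining regions. At the 538 gaps opened between 2 touched flanks, the centre of the break lay a median of 25 bp, a single grid step, from the centre of the wild-type gap. In 494 of them (91.8%, 89.2 to 93.9) it lay within 100 bp, and in 78 (14.5%) the edges were identical. These breaks were chosen for overlapping the gap, so small distances are partly built in. The break had a median width of 250 bp, and the wild-type gap at the same place 275 bp. It was narrower than the gap in 300 cases, as wide in 144 and wider in 94. The reverse set was alike, with 480 of 527 breaks (91.1%) centred in a filled gap. By length 85.5% of its breaks lay in filled gaps, which made up 18.7% of the joining length. The median distance between centres was again 25 bp, and 90.4% lay within 100 bp.

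The share of bases left uncovered by the stricter list was higher in the gaps and at the outer ends than in the joined regions. In length, the uncovered part in joining K3R3 regions was 157.8 kb of gap, 63.85 kb of joined wild-type regions and 57.6 kb of overhang. Stricter K3R3 regions left 41.2% of the filled gap length uncovered and 38.9% of the overhang, but 5.02% of the length that lay in joined wild-type regions. In the reverse set the stricter wild-type list left 32.5% of the gap, 38.9% of the overhang and 3.44% of the joined length uncovered.

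Joining regions broke up at the stricter threshold far more often than other K3R3 regions of their width. Overall 562 of 1191 (47.19%, 44.37 to 50.03) held an internal break, against 1493 of 68570 K3R3 regions with exactly 1 wild-type partner (2.18%). Within width classes the gap stayed wide. From 800 to below 1000 bp the shares were 46.2% (38.8 to 53.7) and 5.00% (4.44 to 5.64). From 1000 to below 1500 bp they were 45.2% (40.3 to 50.3) and 7.20% (6.59 to 7.87), and at 2000 bp or more 56.6% (50.3 to 62.7) and 19.4% (17.4 to 21.7). Among the wild-type regions that joined K3R3 regions the share was 38.1% (35.5 to 40.8), against 1.49% of those with exactly 1 partner. Over all widths, the K3R3 list thus had the higher share of breaks in joining and in single-partner regions alike. Among joining regions below 600 bp the order was the other way, at 22.2% for K3R3 and 25.9% for the wild type. In some width classes the intervals of the libraries overlapped. From 1000 to below 1500 bp the wild-type joining share was 38.5% (34.1 to 43.1).

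**Figure D5:**
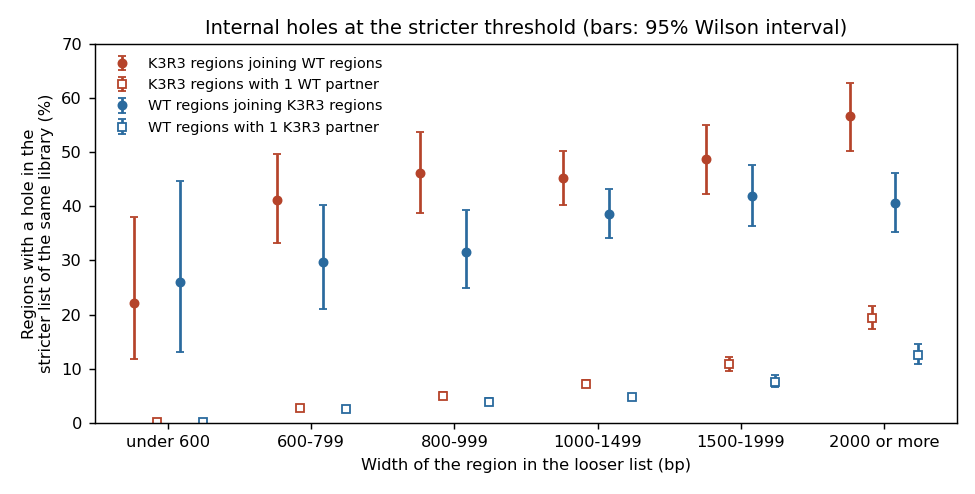
Share of looser regions that hold a break in the stricter list of the same library (vertical, %) by region width in bp, for regions that join several regions of the other library (filled circles) and regions with exactly 1 partner (open squares), K3R3 in red and wild type in blue; bars are 95% Wilson intervals. In every width class the joining regions lie above the single-partner regions, for example 45.2% against 7.20% for K3R3 from 1000 to below 1500 bp.

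The widest filled gap lay on chromosome 4 (138304076 to 138306650, 2575 bp). There K3R3 formed a region of 3025 bp, of which wild-type regions of 200 and 175 bp at the ends covered 12.4%. The stricter K3R3 list held 3000 bp of it as a single region, and the stricter wild-type list held only the end regions, at 175 and 100 bp. On chromosome 12 a gap of 2500 bp (113725726 to 113728225) was filled within a K3R3 region of 4325 bp that had the same edges in both K3R3 lists. On chromosome 1 a gap of 1725 bp (134641526 to 134643250) and on chromosome 11 a gap of 1700 bp (120220451 to 120222150) were also covered over every base at the stricter threshold. On chromosome 1 a gap of 2000 bp (193663651 to 193665650) was covered to 88.8%, since the stricter K3R3 list broke right after the first wild-type region. At all 5 places neither wild-type list held a region inside the gap.

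Of the 13 filled gaps of at least 1000 bp, the stricter K3R3 list covered 6 over every base and opened 7. The least covered was on chromosome 13 (56709101 to 56710525, 1425 bp), where 50 bp remained (3.51%). The stricter wild-type list held a region in only 1 of the 13, with 375 bp in a gap of 1100 bp on chromosome 17 (87818801 to 87819900).

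Among regions in which the stricter list opened a gap between touched flanks, the widest after the 2 on chromosome 5 lay on chromosome 2. At 180965276 to 180971300 (6025 bp) wild-type regions of 1475 and 4850 bp flanked a gap of 225 bp, of which the stricter K3R3 list kept 25 bp. The region of 5000 bp described above was next. At 167570351 to 167575075 (4725 bp) the gap measured 275 bp, 50 bp of it stayed covered, and wild-type regions covered 52.4% of the joining region.

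Wide joining regions with no opened gap were found as well. On chromosome 3 (137727901 to 137733450, 5550 bp) wild-type regions of 2475 and 2650 bp stood on either side of a 400 bp gap, and the stricter K3R3 region still spanned 5525 bp. The stricter wild-type list kept the gap open between regions of 2425 and 2600 bp. On chromosome 5 (124570401 to 124575725, 5325 bp) a gap of 275 bp, on chromosome 9 (119924101 to 119929075, 4975 bp) gaps of 225 and 350 bp, and on chromosome 4 (140217376 to 140222025, 4650 bp) a gap of 450 bp stayed filled. The region of 5075 bp on chromosome 11 around the 1700 bp gap was the other member of this group.

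Joining regions occurred on all 17 autosomes, in numbers from 18 on chromosome 18 to 146 on chromosome 2. They made up 0.519% of K3R3 regions on chromosome 18 and 1.58% on chromosome 2. K3R3 filled 4.53% of the wild-type gaps of at most 1000 bp on chromosome 18, the lowest share, and 9.98% on chromosome 12, the highest. The share opened at the stricter threshold ran from 36.6% on chromosome 19 to 59.4% on chromosome 11, on 41 and 128 filled gaps.

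The joining regions stood in somewhat region-richer surroundings than other wide regions, and more of them lay near the distal end of a chromosome. Within 50 kb on either side there was a median of 16 other K3R3 and 14 other wild-type regions. For single-partner K3R3 regions of at least 950 bp, the lower quartile of the joining widths, the medians were 14 and 12, and around the reverse set 12 and 11. Of the joining regions, 32.5% (29.9 to 35.2) lay in the last 20 Mb before the final region of their chromosome, against 27.2% (26.4 to 28.1) of those wide single-partner regions and 24.2% (21.9 to 26.6) of the reverse set. Wild-type regions per K3R3 region within 500 kb on either side had a median of 0.856 around joining regions, 0.869 around the reverse set and 0.874 around wide single-partner K3R3 regions, with quartiles of 0.783 and 0.921 for the first. Over all 99976 K3R3 regions, 24.6% (24.4 to 24.9) lay in the last 20 Mb, the median counts were 11 and 9, and the median ratio was 0.837. These surroundings overlapped widely between the sets.

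Some joining regions came in groups. Of the 1191, 138 (11.6%, 9.89 to 13.5) lay within 10000 bp of another, against 89 of 1312 (6.78%, 5.55 to 8.27) in the reverse set. In windows of 1 Mb the most were found on chromosome 2 between 167 and 168 Mb, with 13 joining among 245 K3R3 regions and 7 of the reverse kind among 247 wild-type regions. Chromosome 11 between 117 and 118 Mb had 10 among 266 and 9 among 224. Chromosome 17 between 87 and 88 Mb had 8 among 175 and none among 129, and between 34 and 35 Mb 8 among 159 and 1 among 136. The 2 windows on chromosome 17 were picked for their unequal counts, after these were seen, and 4 windows with 9 joining K3R3 regions each had 2 to 6 of the reverse kind. Of 610 windows with a joining region, 333 held a single one. A joined wild-type region rarely reached a further K3R3 region, which happened for 37 of 2436 (1.52%, 1.10 to 2.09).

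At the edge of the rule, 70 joining regions (5.88%) overlapped an outermost wild-type region by 25 bp, the smallest overlap the grid allows. This count does not set apart wild-type regions only 25 bp wide that lay wholly inside the K3R3 region. Just outside it, 5 K3R3 regions with exactly 1 partner ended within 25 bp of another wild-type region.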

How the data were processed

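Each library came with 2 deposited lists of enriched regions, 4 in all. Their track lines give the thresholds as 1e-09 for the looser and 1e-12 for the stricter list. The stricter list was not simply a part of the looser list of the same library. Near the 4650 bp joining region on chromosome 4, the stricter K3R3 list held a region where the looser one had none. It also lacked a whole looser region nearby. The stricter wild-type list likewise held regions outside the looser ones, such as that of 275 bp on chromosome 5. A list gives chromosome, start and end on a 25 bp grid, with no height or score, so no read depth can be derived. Bowtie 0.12.3, the build mm9 and bedtools are named, per the submitters' processing notes. Which program called the regions, with which filters and control, is not given in the sources used here.

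K3R3 regions of the looser list on 17 autosomes (without chromosomes 6 and 8) that overlapped at least 2 looser wild-type regions by 1 bp or more were taken, and the gap between each pair of neighbouring joined regions was measured. The reverse set was found the same way. A gap was opened when at least 1 base of it lay in no stricter region of the library that filled it. Shares carry 95% Wilson intervals, which hold for counting error alone and take regions to be independent. Regions were named by a fixed rule, the first 5 by number of joined regions, by gap width, and by width among regions with an opened gap touched on both sides and among those with none opened. All 13 gaps of at least 1000 bp are also described, a choice made after their values were seen, as were the comparison by chromosome position and the 1 Mb windows. The members and the measures were chosen with earlier results of these data known. There was 1 library per group, so no test was run and no p-value is given. Alternatives changed the lists compared, the overlap, the chromosomes, the definition of open and the gap and flank widths.

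Gene and promoter tables of GRCm38 do not share the build of the regions, so genes and sequences are not used here. The work was done in Python 3.11.15 (pandas 2.3.3, numpy 2.4.6, matplotlib 3.10.9, scipy 1.17.1). The counts of joining regions were checked against bedtools 2.31.1, and the functions were tested on simulated data.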

Additional observations from a re-analysis of the deposited data

How the results depend on the processing

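The medians of gap width and overhang kept to within a grid step of 25 bp under the alternatives fixed at the start and run for them, and counts of joining regions and gaps to within 1.5 times, except with the stricter K3R3 list set against the looser wild-type list, which gave 602 joining regions and 616 gaps. The share of wild-type gaps filled by K3R3, then of K3R3 gaps filled by the wild type, was 7.34% and 7.77% in the stricter lists, 7.12% and 6.11% with an overlap of at least 100 bp, 7.01% and 8.19% on all autosomes, 13.4% and 11.8% for gaps of at most 500 bp, and 5.36% and 4.40% up to 2000 bp. The order turned in the stricter lists, though with overlapping intervals (6.94 to 7.77 and 7.40 to 8.14), and on all autosomes. The latter setting only added chromosomes 6 and 8, where K3R3 filled 1.79% and 1.36% and the wild type 18.4% and 18.9%. The cause of the turn in the stricter lists, and of the values on chromosomes 6 and 8, was not tested. The share of filled gaps opened in the stricter list of the filling library was 15.6% for K3R3 and 10.8% for the wild type when no base could be covered, and 43.2% and 34.9% when both flanks had to be touched. On all autosomes the wild-type value was 36.8%. K3R3 had the higher share in each case. The share of these gaps open in the stricter wild-type list was 99.5% and 82.0% under the same 2 definitions. More wild-type than K3R3 regions joined in the stricter lists (1495 against 1082) and on all autosomes (1740 against 1244). Alternatives chosen after seeing the data gave fewer regions, since they keep a part of the gaps. Gaps of at least 300 bp left 379 regions and 391 gaps with a median of 375 bp, 60.6% of them opened. Gaps also filled in the stricter K3R3 list and free of stricter wild-type regions left 598 and 613. Flanks of at least 200 bp left 778 and 806. No paired analysis was possible because a group consisted of a single library. Depth, which limits which narrow gaps and regions can be called, is unknown.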

Other observations

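Chromosomes 6, 8 and X were outside the rule. K3R3 filled 28 wild-type gaps of at most 1000 bp on chromosome 6 (1.79% of 1567, 1.24 to 2.57) and 26 on chromosome 8 (1.36% of 1906, 0.933 to 1.99). The wild type filled 194 K3R3 gaps on chromosome 6 (18.4% of 1052, 16.2 to 20.9) and 263 on chromosome 8 (18.9% of 1389, 16.96 to 21.08). On X, where the looser lists held 1532 wild-type and 1826 K3R3 regions, the wild type filled 56 of 298 K3R3 gaps (18.8%, 14.8 to 23.6), a share like those of chromosomes 6 and 8. Yet K3R3 filled 17 of 237 wild-type gaps on X (7.17%, 4.53 to 11.2), within the range of the 17 autosomes (4.53% to 9.98%). The highest share of K3R3 gaps filled by the wild type on those autosomes was 8.13%, on chromosome 3. The stricter wild-type list opened 11 of the 56 gaps on X (19.6%), and the stricter K3R3 list 11 of its 17 (64.7%).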
